A study of Mus musculus with 6 samples.

Results

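The 51 genes described here encode enzymes of the tricarboxylic acid (TCA) cycle, nuclear-encoded subunits of respiratory chain complexes I to V with cytochrome c, and 4 regulators of mitochondrial gene expression. Members were every probe set whose platform annotation names 1 of these genes alone, 119 of the 45101 probe sets on the array. They cover 50 of the 51 genes, since none names Cox7b alone. Of the 50 genes, 48 had a probe set bright enough to be tested, which means that 3 or more of the 6 arrays reached their own array's median signal. In all 11893 genes were tested, and Ppargc1a and Ppargc1b were not among them.

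The cells were 393P, a mouse lung cancer line, in 6 cultures with 1 Affymetrix expression array each. In 3 cultures the cells carried the empty pcDNA control vector, and in the other 3 a vector from which Zeb1, a zinc-finger repressor of epithelial genes, is expressed constitutively after stable transfection (the sample descriptions call it induction). Serum-containing RPMI medium was common to all of them, and no further allele or agent is named in the labels. The promoter that drives Zeb1, whether the lines are clones, and the number of independent transfections per group are not given in the sources used here, so p-values measure the spread between cultures. The comparison asks which of these transcripts differ once Zeb1 is expressed.

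The TCA cycle oxidises acetyl groups in the mitochondrial matrix and hands their electrons to NADH and FADH2. Complex I and complex II pass these electrons to ubiquinone, complex III to cytochrome c and complex IV to oxygen, and the proton gradient that results drives ATP synthesis at complex V. Most subunits are encoded in the nucleus, where the factors NRF1 and GABP and the coactivators PGC-1alpha (Ppargc1a) and PGC-1beta (Ppargc1b) are known to activate many of them, while Tfam packages mitochondrial DNA and starts its transcription.

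Array medians were log2 6.15 to 6.44, and the 3' minus 5' log2 signal of the control transcripts was -0.41 to -0.31 for Gapdh and -0.00047 to 0.19 for Actb. Zeb1 rose by 5.23 (at least 37.4-fold, adjusted p = 1.12e-08), with 2 of 3 control arrays at the signal floor. The summed linear signal of 6 epithelial markers was 109656 to 116406 on control arrays and 57574 to 61806 on Zeb1 arrays, where Epcam, Cdh1, Krt7 and Krt8 were lower and Krt18 and Krt19 were not called. Of 6 lung epithelial markers 3 were tested and none was called, with a summed signal of 465.4 to 531.6 on control and 571.5 to 606.6 on Zeb1 arrays. The lung lineage factor Nkx2-1 was near the floor (4.79 and 4.63), while the surfactant gene Sftpb was at 8.08 and 8.44. Of the immune markers on the array 3 of 7 were tested and none called (630.4 to 693.6 and 530.4 to 741.9), with Ptprc near the floor and the brightest, Csf1r, at 7.86 and 7.60. Of the endothelial markers 1 of 6 was tested and not called, Kdr at 7.73 and 7.49 (347.8 to 482.8 and 343.4 to 487.3), and Pecam1 and Vwf lay at the floor on all 6 arrays. Of the fibroblast markers 1 of 8 was tested and not called, Col1a2 at 6.75 and 6.72 (343.4 to 569.3 and 391.6 to 511.3). Pdgfrb lay at the floor on all 6 arrays, and Col3a1, below the filter, was at 4.87 and 6.22 with groups that did not overlap. Of 6 muscle and brown fat markers, chosen because such cells are rich in mitochondria, 2 were tested, and Tnnt2, a troponin, was lower in Zeb1 cells (11.62 and 11.28, adjusted p = 0.00751), while Ucp1 and Cidea lay at the floor on all 6 arrays. That list's summed signal was 3301 to 3718 on control arrays and 2654 to 2951 on Zeb1 arrays. The part of these markers in the results was not tested.

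Zeb1 cells differed from control cells in 26 of the 48 tested members, 13 higher and 13 lower. This is 54.2% of the members, close to the 50.5% called among all 11893 tested genes, of which 26.4% were higher and 24.1% lower. Called means an adjusted p below 0.05 in limma's moderated test. On its brightest probe set, which stands for the gene, no member changed by as much as 2-fold, against 15.8% of all tested genes. Dimmer probe sets of Mdh1 (-1.81) and Ndufv2 (-1.26) were called with larger falls. The median absolute log2 change was 0.28 in the members and 0.36 over all tested genes, and the median change was 0.03 and 0.01. Control and Zeb1 arrays were fully separated in 30 of the 48 members, beside 58.2% of all tested genes. Where a change is given relative to neighbouring genes, each array's value had the median deviation of up to 20 tested genes on each side of the gene taken off, a setting added after the data had been seen. In bulk RNA a lower signal from fewer expressing cells and from less RNA per cell cannot be told apart.

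**Figure D1:**
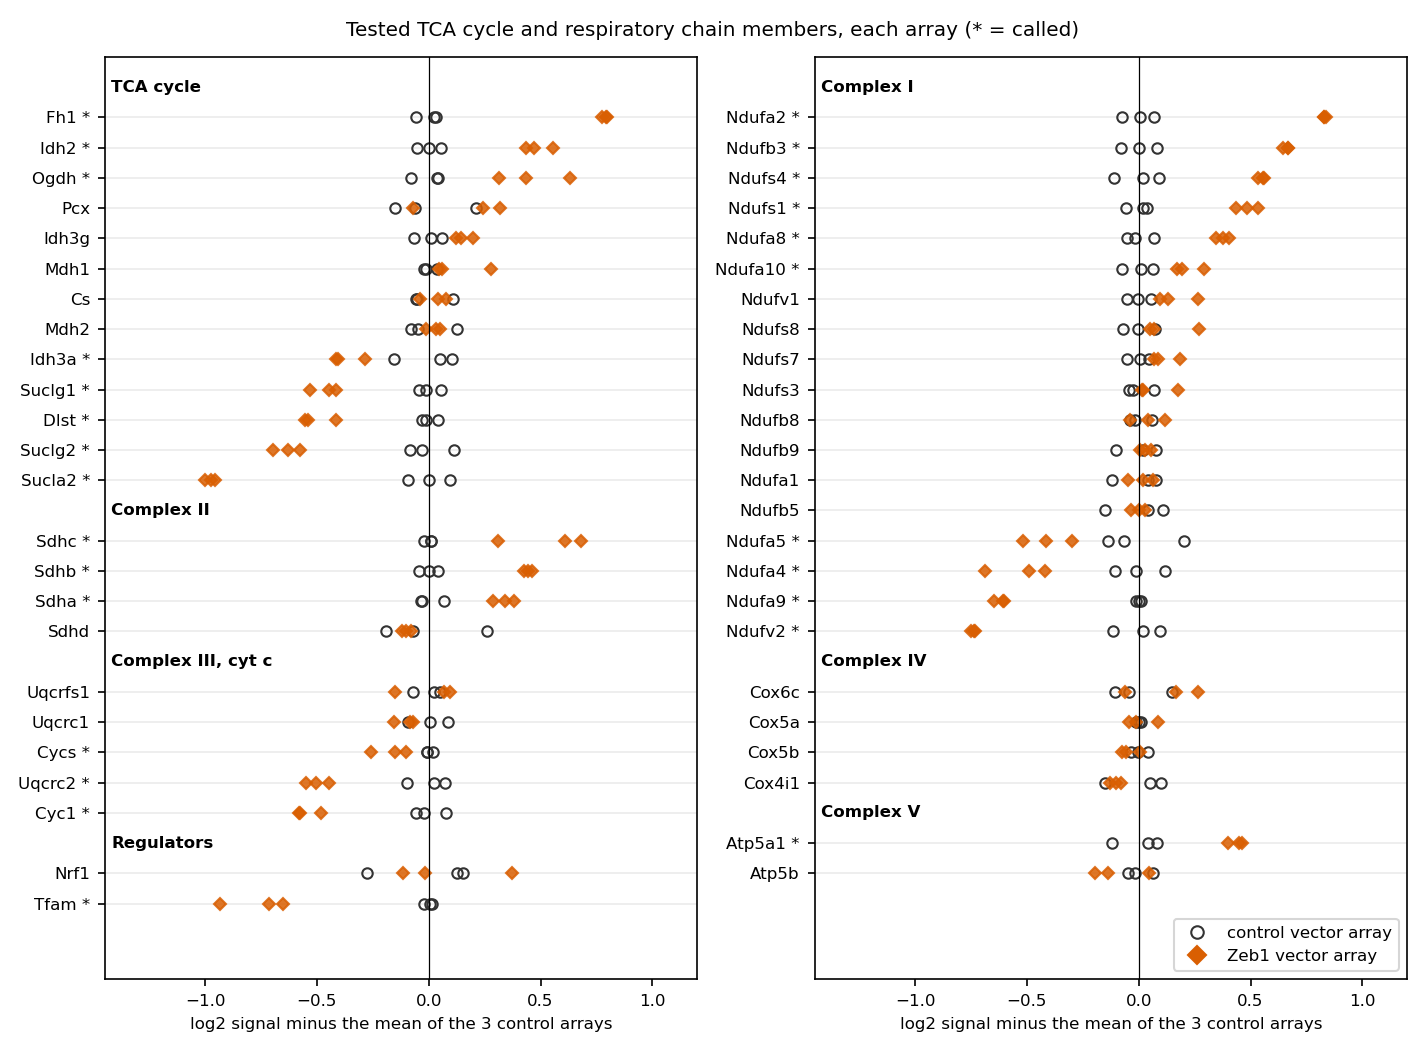
Each point is 1 array's log2 signal minus the mean of the 3 control arrays of that gene, for the 48 tested members by role (circles, control vector; diamonds, Zeb1 vector; an asterisk marks a called gene). Fh1 and Ndufa2 sat highest and Sucla2 and Tfam lowest, while the Zeb1 arrays of the 4 Cox subunits of complex IV overlapped the control arrays. Relative to chromosomal neighbours, Sdha, Ndufa10 and Atp5a1 had changes below 0.

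Promoter windows of 4 called members, picked after their values were seen, are shown as examples from different role groups: Sucla2 in the TCA cycle, Sdhb in complex II, Ndufa9 in complex I and Tfam among the regulators. Each is a window of 300 bases from the RefSeq promoter table for GRCm38.p6, 5′ to 3′ on the gene's own strand. Those of Sucla2, Sdhb and Ndufa9 span the outer start of the annotated gene, whereas that of Tfam lies wholly inside the annotated gene. Capitals mark the E-box bound by Zeb1 (CACCTG, or CAGGTG on the other strand) and the ETS core bound by GABP (CCGGAAG, or CTTCCGG). The windows are chr14:73552536-73552835, plus strand, for Sucla2, chr4:140961021-140961320, plus strand, for Sdhb, chr6:126849095-126849394, minus strand, for Ndufa9 and chr10:71237995-71238294, minus strand, for Tfam.
Sucla2: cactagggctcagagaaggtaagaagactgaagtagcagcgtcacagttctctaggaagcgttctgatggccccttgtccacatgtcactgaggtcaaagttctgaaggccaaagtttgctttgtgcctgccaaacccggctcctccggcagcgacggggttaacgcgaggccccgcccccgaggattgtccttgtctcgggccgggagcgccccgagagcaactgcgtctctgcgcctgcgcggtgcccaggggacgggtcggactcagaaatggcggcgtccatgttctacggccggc
Sdhb: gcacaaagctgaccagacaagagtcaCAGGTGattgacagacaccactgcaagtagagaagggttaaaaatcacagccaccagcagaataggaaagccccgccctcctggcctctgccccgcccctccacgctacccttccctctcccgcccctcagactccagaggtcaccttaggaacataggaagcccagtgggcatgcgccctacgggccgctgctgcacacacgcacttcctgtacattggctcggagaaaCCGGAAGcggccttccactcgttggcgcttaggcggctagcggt
Ndufa9: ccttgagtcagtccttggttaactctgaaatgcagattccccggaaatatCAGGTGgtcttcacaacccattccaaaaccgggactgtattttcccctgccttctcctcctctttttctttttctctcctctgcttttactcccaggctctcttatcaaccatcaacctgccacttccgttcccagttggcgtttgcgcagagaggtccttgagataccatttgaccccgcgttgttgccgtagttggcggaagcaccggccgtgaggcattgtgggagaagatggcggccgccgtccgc
Tfam: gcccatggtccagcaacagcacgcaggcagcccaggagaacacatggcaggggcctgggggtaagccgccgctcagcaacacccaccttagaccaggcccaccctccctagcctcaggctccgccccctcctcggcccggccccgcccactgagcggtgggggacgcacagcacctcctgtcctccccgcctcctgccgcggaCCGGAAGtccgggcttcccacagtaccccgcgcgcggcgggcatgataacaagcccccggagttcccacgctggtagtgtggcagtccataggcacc

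The Sdhb window held 1 E-box and 1 ETS core, the Ndufa9 window 1 E-box, the Tfam window 1 ETS core and the Sucla2 window none of them. The RefSeq table had windows for 40 of the 51 members, 48 windows in all because some genes have several starts. An E-box was found in 8 of the 48 (16.7%), against 20.2% of all 32841 windows. ETS cores were found in 7 (14.6%, against 8.86% of all windows). The palindromic NRF1 consensus site, searched as well, was in 1 window, that of Uqcrc1 (2.08%, against 0.971%). Split by call, E-boxes lay in 2 of 14 windows of members that rose, 1 of 11 of those that fell and 4 of 21 of those not called. ETS cores lay in 1 of the 14, 2 of the 11 and 4 of the 21. The other 2 windows belong to the untested Cox7b and Ppargc1a. Windows are not separate genes: the 14 come from 9 genes, the 11 from 10 and the 21 from 19. Ogdh alone gave 6 of the 14, partly overlapping, and 1 of the 2 with an E-box. A match is a run of letters and was not tested for binding.

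In the TCA cycle 5 of 13 enzymes fell, 3 rose and 5 were not called, beside 24.1% lower and 26.4% higher among all tested genes, with a median log2 change of 0.03. The falls lay at the step from alpha-ketoglutarate to succinate and just before it. All 3 subunits of succinyl-CoA ligase, the enzyme that makes GTP or ATP within the cycle, were lower in Zeb1 cells. Sucla2, the beta subunit of the ATP-forming enzyme, read log2 11.34, 11.44 and 11.25 on the control arrays and 10.37, 10.39 and 10.34 on the Zeb1 arrays. Its groups were far apart relative to their spread, and it fell by 0.98 (SE 0.0747, adjusted p = 2.71e-06), or 1.97-fold. By brightest probe set this was the largest fall of any member.

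Suclg2, the beta subunit of the GTP-forming enzyme, read 11.69, 11.49 and 11.54 in control cells and 11.00, 10.94 and 10.88 in Zeb1 cells. It was 1.55-fold lower (log2 change -0.63, SE 0.0752, adjusted p = 6.15e-05), and its other tested probe set fell by 0.71. The alpha subunit that both forms share, Suclg1, went from 11.89 ± 0.0517 to 11.42 ± 0.0607 (SD, n = 3 each; adjusted p = 0.000181 with limma), 1.38-fold lower. These 3 falls kept their direction and their call under each of the 17 alternative settings tried. Their size did not hold relative to neighbouring genes. There the log2 change was -0.39 for Sucla2, -0.30 for Suclg2 and -0.34 for Suclg1, each smaller than in the main fit.

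Dlst, the succinyltransferase of the alpha-ketoglutarate dehydrogenase complex, read 11.72, 11.74 and 11.80 on control arrays and 11.20, 11.21 and 11.34 on Zeb1 arrays. No Zeb1 array reached the lowest control array, and Dlst fell by 0.50 (SE 0.0665, adjusted p = 0.00013). Of its 4 tested probe sets 2 fell and 2 were not called. The second to fall was dim (6.93 and 6.12) and passed the filter through its control arrays alone. Ogdh, the first enzyme of the same complex, instead rose by 0.46 (SE 0.0982, adjusted p = 0.00288), from 10.01, 10.01 and 9.89 to 10.28, 10.40 and 10.60. Its Zeb1 arrays were spread more widely than its control arrays (SD 0.16 and 0.0701, n = 3 each), and its call was lost with arrays centred on their medians (0.38) and relative to neighbouring genes (0.15).

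Among the members, isocitrate dehydrogenases went both ways, while Idh1 (0.58) and Idh3b (0.35), which are not members, were called higher. Idh2, the NADP-dependent mitochondrial enzyme, read 10.74, 10.79 and 10.68 in control cells and 11.21, 11.29 and 11.17 in Zeb1 cells. That is a rise of 0.49 (SE 0.0707, adjusted p = 0.000239), 1.40-fold, with tight arrays in both groups. Idh3a, the catalytic subunit of the NAD-dependent enzyme, fell by 0.37 (adjusted p = 0.0025), but its other 3 tested probe sets were not called, and the mean of its probe sets had a change of -0.16 that was not called. Idh3g, a regulatory subunit of that enzyme, had a change of 0.15 (adjusted p = 0.0506) and was higher on all 3 Zeb1 arrays than on any control array.

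Fumarase, Fh1, was the largest rise of the cycle. It read 11.49, 11.40 and 11.48 on control arrays and 12.25, 12.23 and 12.25 on Zeb1 arrays. The Zeb1 arrays lay within a narrow band well above the controls, 1.73-fold higher (log2 change 0.79, SE 0.0582, adjusted p = 2.09e-06). Over the 17 alternatives Fh1 kept its call, with changes from 0.30 to 0.81, and the median change of its neighbouring genes was 0.41. Citrate synthase, Cs, which opens the cycle, was at 12.96 ± 0.093 and 12.98 ± 0.0586 (SD, n = 3 each), a difference of 0.03 (SE 0.0621). One of the other 2 probe sets of Cs fell by 0.30 (adjusted p = 0.014 over all probe sets). The malate dehydrogenase of the matrix, Mdh2, was also not called (0.02, SE 0.0586).

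Cytosolic malate dehydrogenase, Mdh1, was the 1 member whose tested probe sets were called in opposite directions. The brightest read 13.71, 13.72 and 13.77 in control cells and 13.79, 14.01 and 13.78 in Zeb1 cells, a change of 0.13 that was not called (SE 0.0649, adjusted p = 0.131). Of the other 3 tested probe sets, those with intermediate signals rose by 0.24 (adjusted p = 0.0414) and 0.44 (adjusted p = 0.00101). The dimmest fell from 7.26, 7.34 and 7.35 to 6.45, 4.96 and 5.10 (log2 change -1.81, SE 0.383, adjusted p = 0.00342), with 2 of 3 Zeb1 arrays near the floor of 4.45. What separates the transcripts these probe sets read is not known here.

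Pyruvate carboxylase, Pcx, which refills the cycle with oxaloacetate, was dim and not called (7.23 ± 0.19 and 7.40 ± 0.207, SD, n = 3 each). The annotation also gives Pcx to 4 control probe sets of the array, which were left out of the fit. Their differences between group means were 0.17, -0.47, -0.77 and 0.36 on the log2 scale, and the groups did not overlap in 1 of them, the 5' probe set, which was lower on the Zeb1 arrays. The probe sets of Pcx thus differ in sign.

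In complex II, succinate dehydrogenase, 3 of 4 subunits rose and none fell, beside 26.4% higher and 24.1% lower among all tested genes. Relative to neighbouring genes, however, Sdha had a change of -0.03 and Sdhc one of 0.24, neither called. The mean over the 4 subunits was 11.56 ± 0.085 on control arrays and 11.87 ± 0.0454 on Zeb1 arrays (SD, n = 3 each). Sdhb, the iron-sulfur subunit, whose promoter window is printed above, read 12.89, 12.81 and 12.85 in control cells and 13.29, 13.31 and 13.28 in Zeb1 cells. It rose by 0.44 (SE 0.0491, adjusted p = 3.89e-05), 1.36-fold, and by 0.65 relative to its neighbours.

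Sdhc, a membrane anchor, was at 10.61, 10.58 and 10.62 on control arrays and at 10.92, 11.21 and 11.29 on Zeb1 arrays. Zeb1 replicate 1 was the lowest of its group and still above every control array. The rise was 0.53 (SE 0.0978, adjusted p = 0.00112), and the second probe set of Sdhc rose by 0.39. Sdha, the flavoprotein that oxidises succinate, went from 11.58, 11.48 and 11.48 to 11.86, 11.80 and 11.90, a rise of 0.34 (SE 0.0633, adjusted p = 0.00133), with 0.43 on its second probe set. Its call was lost with arrays centred on their medians (0.26). Sdhd, the other anchor, had a change of -0.10 (SE 0.106, adjusted p = 0.471), and its control arrays ranged from 11.09 to 11.54.

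Complex I was divided. Of 18 members 6 rose, 4 fell and 8 were not called, beside 26.4% and 24.1% of all tested genes, with a median of 0.09. Ndufa2, an accessory subunit of the matrix arm, had the largest rise of any member. It read 12.72, 12.65 and 12.57 on control arrays and 13.48 on each Zeb1 array. The rise was 0.83 (SE 0.0537, adjusted p = 8.05e-07), or 1.78-fold, but it was 0.02 relative to neighbouring genes and then not called.

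Ndufb3, an accessory subunit of the membrane arm, read 11.54, 11.46 and 11.38 in control cells and 12.13, 12.13 and 12.10 in Zeb1 cells. This rise of 0.66 (SE 0.0635, adjusted p = 1.4e-05), 1.58-fold, was still called relative to neighbouring genes (0.48). Ndufs4, a late-joining subunit whose loss is known to cause Leigh syndrome, rose by 0.55 (SE 0.0726, adjusted p = 0.000128), from 10.77, 10.91 and 10.97 to 11.44, 11.44 and 11.42. Each of its 4 tested probe sets was higher in Zeb1 cells and 3 were called. Relative to its neighbours its change was 0.16 and not called. The other rises were those of the core iron-sulfur subunit Ndufs1 (0.48), of Ndufa8 (0.38) and of Ndufa10 (0.22). Ndufa10 had changes of -0.08 relative to its neighbours and -0.02 with the mean of its probe sets, and that of Ndufs1 was 0.07 relative to its neighbours. None of these 3 values was called. With arrays centred on their medians Ndufa8 (0.30) and Ndufa10 (0.14) lost their calls, and Ndufa10 lost it with no intensity trend too.

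Ndufv2, a core subunit of the NADH-oxidising module, headed the falls of complex I. Its arrays read 13.15, 12.93 and 13.07 with the control vector and 12.31, 12.32 and 12.30 with Zeb1. It was 1.67-fold lower (log2 change -0.74, SE 0.063, adjusted p = 5.95e-06), and all 3 of its probe sets fell, the others by 0.77 and 1.26. Its partner in the same module, Ndufv1, had a change of 0.16 (SE 0.062, adjusted p = 0.0508) and was not called, although the groups did not overlap. Whether the changes of the 2 subunits differ was not tested.

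Ndufa9, an accessory subunit near the junction of the arms, read 13.31, 13.31 and 13.29 in control cells and 12.69, 12.70 and 12.66 in Zeb1 cells. Both groups were tight, and it fell by 0.62 (SE 0.0479, adjusted p = 2.94e-06), or by 0.15 relative to neighbouring genes, which was not called. Ndufa4, named for complex I but since assigned to complex IV, fell from 13.10, 12.88 and 12.97 to 12.56, 12.49 and 12.30 (log2 change -0.53, SE 0.0822, adjusted p = 0.000361). Ndufa5 fell by 0.41 (adjusted p = 0.0083), with both its probe sets called, and lost its call with no filter (-0.41) and relative to its neighbours (-0.06). The 8 members not called were Ndufa1, Ndufb5, Ndufb8, Ndufb9, Ndufs3, Ndufs7, Ndufs8 and Ndufv1, with changes from -0.0011 to 0.16.

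In complex III with cytochrome c 3 of 5 members fell and none rose, beside 24.1% lower and 26.4% higher among all tested genes. The mean over the 5 was 13.03 ± 0.0461 on control arrays and 12.76 ± 0.0107 on Zeb1 arrays (SD, n = 3 each). Cyc1, the cytochrome c1 subunit that hands electrons to cytochrome c, read 13.33, 13.20 and 13.24 in control cells and 12.68, 12.77 and 12.67 in Zeb1 cells. It was 1.46-fold lower (log2 change -0.55, SE 0.0571, adjusted p = 2.5e-05). Uqcrc2, a core subunit, went from 12.82, 12.65 and 12.78 to 12.25, 12.20 and 12.31, which is 1.41-fold lower (log2 -0.50, SE 0.0627, adjusted p = 9.08e-05), and its second probe set fell by 0.55.

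Cytochrome c itself, Cycs, read 14.37, 14.37 and 14.40 on control arrays and 14.23, 14.28 and 14.12 on Zeb1 arrays. It fell by 0.17 (SE 0.0498, adjusted p = 0.0162), the smallest called change of any member, and its other 2 tested probe sets fell by 0.33 and 0.23. The call was lost under 5 of the 17 alternatives: without control vector replicate 3 (-0.16), without Zeb1 vector replicate 3 (-0.13), with arrays centred on their medians (-0.25), and with no filter or no intensity trend (both -0.17). Uqcrc1, the other core subunit, and the Rieske iron-sulfur protein Uqcrfs1 had changes of -0.10 (SE 0.0607) and 0.0043 (SE 0.0784) and were not called.

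None of the 4 tested Cox subunits of complex IV, cytochrome c oxidase, was called, beside 50.5% of all tested genes. Their changes ran from -0.10 to 0.12. Ndufa4, counted above with complex I by its name, is not among them, and it fell. Cox4i1, a regulatory subunit, went from 13.76 ± 0.131 to 13.65 ± 0.0257, and Cox5a from 14.31 ± 0.0108 to 14.32 ± 0.0677 (SD, n = 3 each). Cox5b had a change of -0.04 (SE 0.0473) on its brightest probe set, whereas 2 of its other 3 tested probe sets fell, by 0.19 and 0.27. Cox6c had a change of 0.12 (SE 0.092). Without control vector replicate 2, Cox4i1 was called lower (-0.18), and with the mean of its probe sets so was Cox5b (-0.15).

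Complex V, the ATP synthase, was read through its catalytic head. Atp5a1, the alpha subunit, read 13.21, 13.01 and 13.17 in control cells and 13.53, 13.59 and 13.58 in Zeb1 cells. Zeb1 arrays were all higher, and it rose by 0.44 (adjusted p = 0.000178, SE 0.0605), but its change relative to neighbouring genes was -0.20 and not called. A second probe set rose by 0.47, and the third had a change of 0.34 (adjusted p = 0.0797 over all probe sets). Atp5b, the beta subunit, had a change of -0.10 (SE 0.0665, adjusted p = 0.268), and without Zeb1 vector replicate 3 it was called lower (-0.17).

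Of the 4 regulators 2 were tested and Tfam alone was called, beside 50.5% of all tested genes. It read 11.47, 11.50 and 11.51 on control arrays and 10.84, 10.78 and 10.56 on Zeb1 arrays. Every Zeb1 array was lower than every control array, and Tfam fell by 0.77 (SE 0.0832, adjusted p = 3.28e-05), or 1.70-fold. It was still called relative to its neighbours and under the other alternatives, and over all 17 its change ran from -0.84 to -0.51. The second, dimmer probe set of Tfam had a change of -0.25 that was not called (adjusted p = 0.312 over all probe sets).

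Nrf1, the nuclear respiratory factor, read 8.64, 9.06 and 9.04 in control cells and 8.90, 9.28 and 8.80 in Zeb1 cells. The groups overlapped (change 0.08, SE 0.163, adjusted p = 0.723), and none of its 4 tested probe sets was called. In 2 of them, with changes of -0.50 and -0.39, all Zeb1 arrays were below the control arrays. Over the 17 alternatives the change of Nrf1 ranged from -0.19, with the mean of its probe sets, to 0.43, relative to neighbouring genes, where alone it was called. The brightest probe set of Ppargc1a read 5.19, 5.998 and 5.61 with the control vector and 6.31, 6.72 and 6.51 with Zeb1. The Zeb1 arrays were above the control arrays by 0.92 on average, but the probe set did not pass the filter, and with no filter the gene was not called. Its other 4 probe sets had at least 1 control array at the floor. Ppargc1b was at the floor on all 3 Zeb1 arrays and on control array 2, with 5.44 and 4.65 on the other control arrays.

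Read by probe set, 98 of the 119 were tested, and 21 rose, 25 fell and 52 were not called. The 46 called are 46.9% of those tested, beside 46.1% of all 20594 tested probe sets, where 24.5% were higher and 21.6% lower. The remaining 21 were 17 below the filter and the 4 array controls. Of 28 members with several tested probe sets, 13 were called, and in 7 of these every tested probe set passed in the gene's direction. Among the members not called on their brightest probe set, Cs, Idh3g, Mdh1 and Cox5b had another that was.

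**Figure D2:**
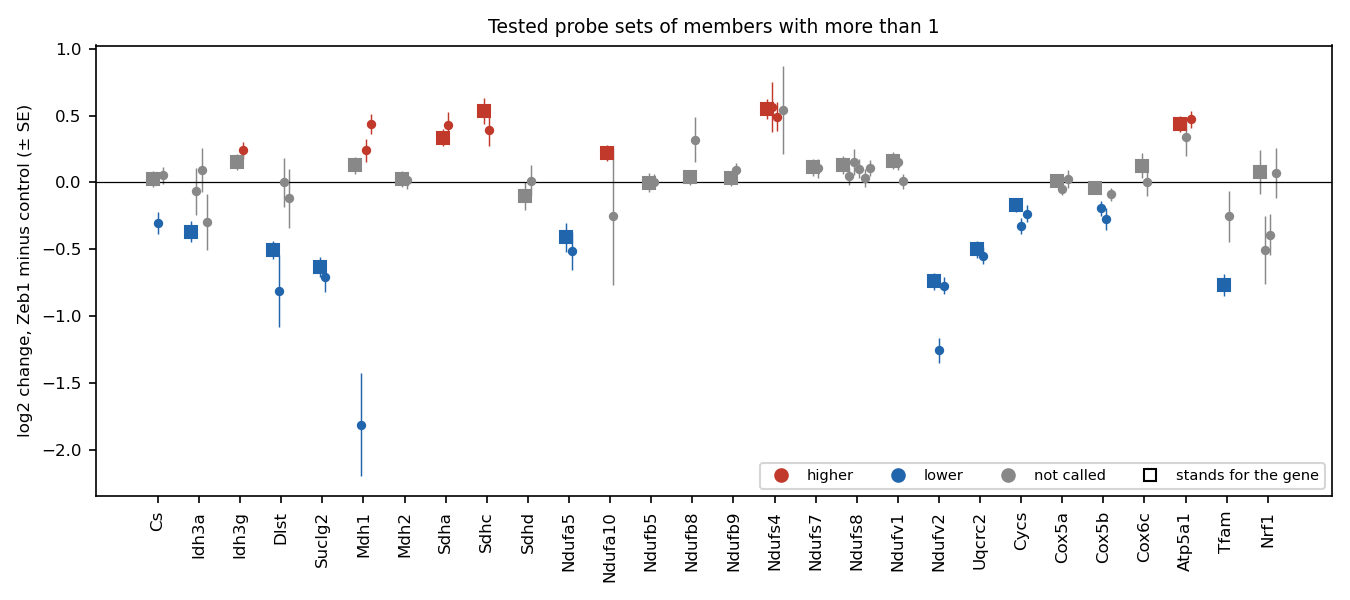
Log2 change (Zeb1 vector minus control vector, bars SE) of each tested probe set, for the 28 members with more than 1; squares stand for the gene and colour gives the call over all probe sets. The 3 probe sets of Ndufv2 and the 3 of Cycs all lie below 0, while those of Mdh1 lie on both sides.

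Other genes of the same pathways were taken from 7 lists with 142 tested genes, of which 42 rose and 26 fell. The 47.9% called lie near the 50.5% of all tested genes (26.4% higher, 24.1% lower), the background for each list that follows. In the list of other TCA cycle enzymes and pyruvate entry 11 of 23 rose and 4 fell, with a median of 0.15. Pck2, the mitochondrial phosphoenolpyruvate carboxykinase, rose by 1.71 (8.80 ± 0.348 to 10.51 ± 0.0577, SD, n = 3 each; adjusted p = 9.03e-06 with limma). Me2, the mitochondrial malic enzyme, rose by 1.08. Mpc1, a subunit of the mitochondrial pyruvate carrier, fell by 1.64 (10.52 ± 0.324 to 8.88 ± 0.157; adjusted p = 1.3e-05), and Dlat, the acetyltransferase of pyruvate dehydrogenase, fell by 0.64. The changes of Pck2, Me2 and Mpc1 were each larger than that of any member on its brightest probe set.

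Among the remaining subunits calls again went both ways. Of 16 other complex I subunits 3 rose and 5 fell, the largest being Ndufa13 (0.40), Ndufc1 (0.35), Ndufa3 (-0.43) and Ndufv3 (-0.38). For complexes III and IV 2 of 13 rose, Uqcr10 by 0.57 and Uqcrq by 0.45, and 1 fell, the supercomplex factor Cox7a2l, by 0.35. Of 13 other genes of complex V 5 rose, led by Atp5h (0.51) and Atp5g1 (0.50), and Atp5g2 fell by 0.36.

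Assembly factors gave 11 rises and 9 falls among 38 tested. Sdhaf4, a chaperone for the flavoprotein of complex II, rose by 0.83, and Bcs1l, which inserts the Rieske protein into complex III, rose by 0.64. The mitochondrial mRNA-binding protein Lrpprc fell by 0.63 and Uqcc2, a factor for cytochrome b, by 0.54. Among 21 factors of mitochondrial DNA maintenance and biogenesis 4 rose and 5 fell. Gabpa, the DNA-binding subunit of GABP, whose core motif is marked in the Sdhb and Tfam windows, rose by 1.09 (adjusted p = 0.000203). Sdhb rose and Tfam fell, and any link of Gabpa to them was not tested. The polymerase subunit Polg2 rose by 0.46. The nuclear receptor Ppard fell by 1.77, and Ssbp1, which coats single-stranded mitochondrial DNA, fell by 0.82 beside Tfam.

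Of 18 electron carriers and other inputs 6 rose and 1 fell. These rises include Aox1, an aldehyde oxidase that is not part of the respiratory chain. It went from 5.51 ± 0.103, below the pooled median signal of 6.32, to 7.74 ± 0.115 (SD, n = 3 each), a log2 change of 2.23 whose lower level is near background. Coq8a, a kinase-like protein of ubiquinone synthesis, rose by 0.84 from a similarly low level. Aox1 and Coq8a both passed the filter through their Zeb1 arrays alone. The mitochondrial glycerol-phosphate dehydrogenase Gpd2 fell by 0.44.

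**Figure D3:**
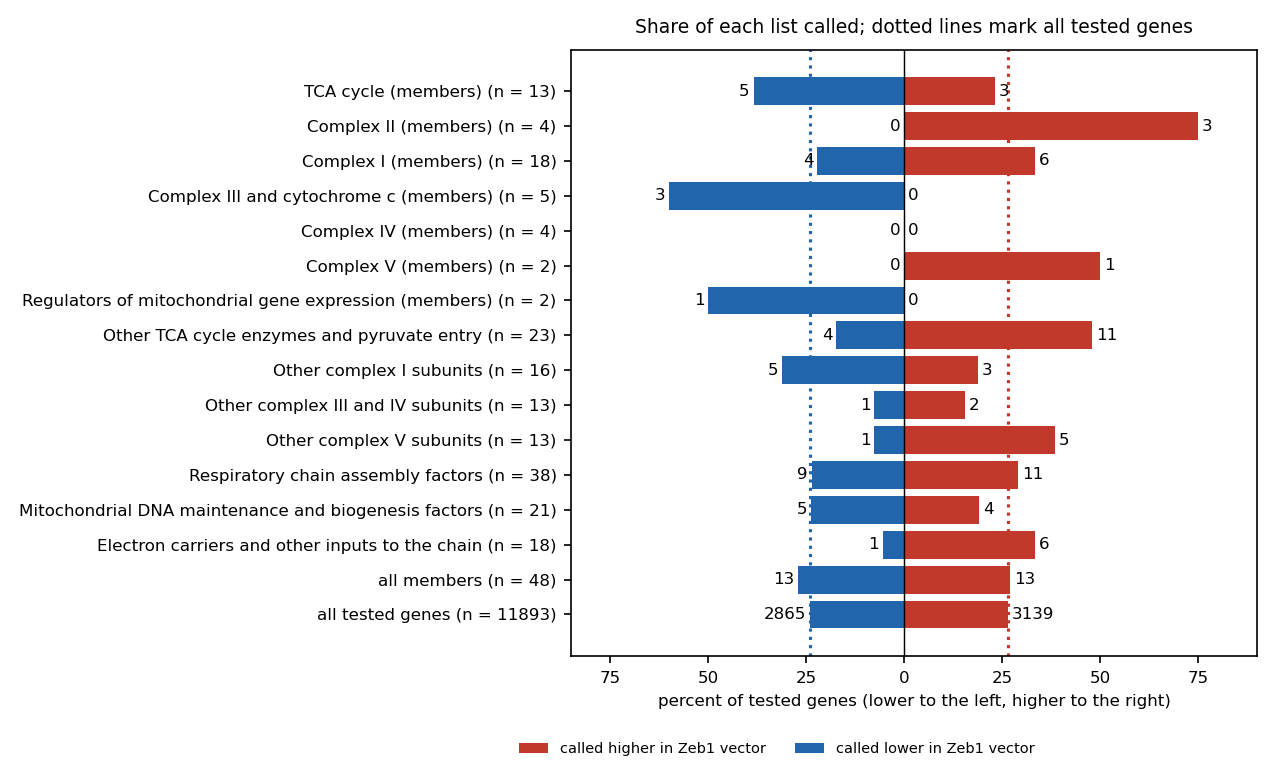
Bars give the percent of tested genes called higher (right) or lower (left) in Zeb1 vector cells for each role group of members and each further list, with counts at the bar ends; dotted lines mark the 26.4% and 24.1% of all tested genes. Complex II has 3 of 4 called higher (the sign of Sdha turns relative to neighbouring genes), complex III with cytochrome c 3 of 5 called lower, and complex IV, counted without Ndufa4, none.

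Members often moved in the direction of the genes beside them on the chromosome. The median log2 change of up to 20 tested genes on each side was taken for each gene, in the gene order of GRCm38.p6. Around the 13 members that rose this median was above 0 for 10, and around the 13 that fell it was below 0 for 11. That is 80.8% of called members, beside 68.4% of all called genes with neighbours. Around Ndufa2 the neighbours' median was 0.75, around Atp5a1 0.68 and around Ndufs1 0.46, while around Sucla2 it was -0.48 and around Ndufa9 -0.43. By contrast the neighbours of Tfam (-0.06), Uqcrc2 (-0.04), Idh2 (-0.05) and Sdhb (-0.13) had medians near 0 or of the other sign.

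Across the 48 tested members the change and the neighbours' median had a Pearson r of 0.73 and a Spearman rho of 0.68, and across 11870 genes 0.23 and 0.33. These are descriptions, since the points share the same 6 arrays and overlapping neighbours. With each array's neighbour shift taken off, 8 members were called higher and 13 lower, in place of 13 and 13. The genes called were not all the same. With the sign kept, calls were lost for 7 members, Ogdh, Sdhc, Ndufa2, Ndufa5, Ndufa9, Ndufs1 and Ndufs4, and gained for 3, Idh3g, Ndufs7 and Nrf1. Signs turned for 5 further members. Of these Sdha, Ndufa10 and Atp5a1 lost their calls as well, while Mdh1 and Ndufb9, not called in the main fit, were then called lower.

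**Figure D4:**
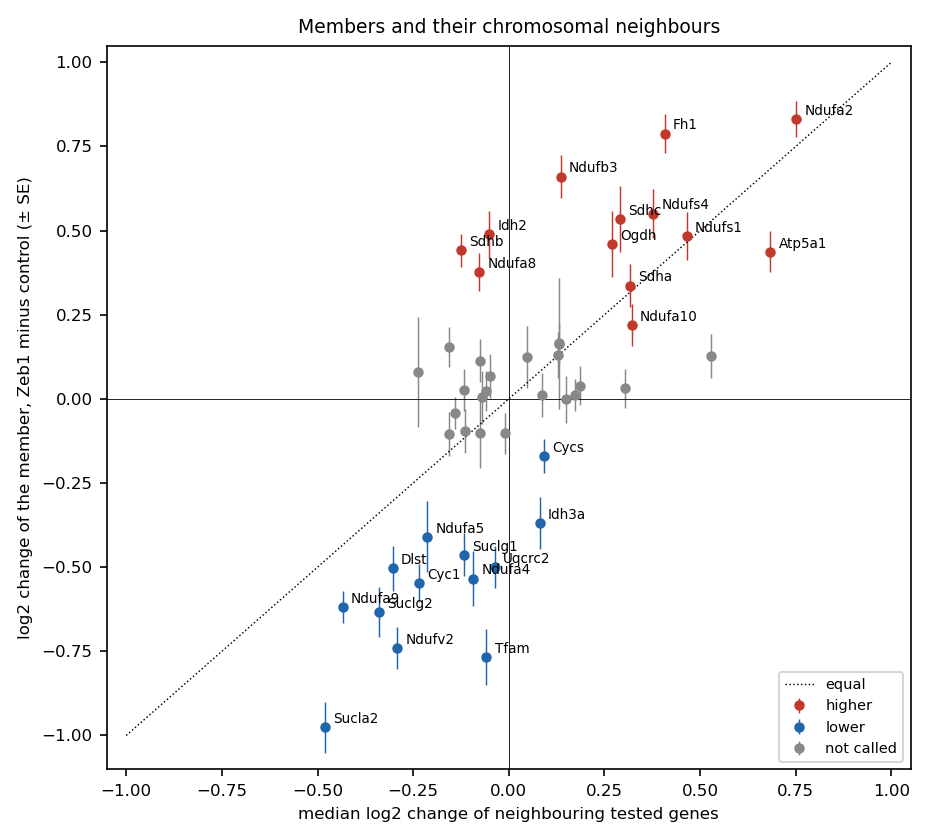
The log2 change of each of the 48 tested members (vertical axis, bars SE) against the median log2 change of its neighbouring tested genes (horizontal axis), coloured by call; the dotted line marks equal values. Ndufa2 lies near the line at 0.83 and 0.75, Atp5a1 lies below it, and Tfam lies far under it with neighbours at -0.06.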

How the data were processed

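The deposited table holds log2 values for 45101 probe sets on 6 arrays, and per the submitters' processing notes the authors used MAS5 (version not given in the sources used here), which works array by array. Taken out of log2, each array had a trimmed mean linear signal between 500.003 and 500.189, so it had been scaled before deposit. The floor was the 25th percentile of the pooled values (log2 4.45, linear 21.8), to which lower signals and 2 missing values were raised, which makes noise at low signal look flat.

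Probe sets with several symbols (932), none (9160) or array controls (64) were left out of the fit. Of the 34945 others, 34741 were found in the RefSeq gene table of GRCm38.p6 by Entrez identifier, and 20594 passed the filter. The brightest probe set stood for each of 11893 genes. Groups were compared with limma 3.58.1 in R 4.3.3 through lmFit and trended eBayes, with Benjamini-Hochberg adjustment over all genes, or over all probe sets where so stated, and a threshold of 0.05. The fit was checked on simulated data. Errors are SE of log2 changes or SD of 3 arrays, whose number limits the precision.

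The members, lists and settings were chosen with earlier results of these data known, and the motifs and the neighbour setting after the values were seen. Values on every array are given for the 3 largest called rises and falls of each role group, for regulators and for members with opposed probe sets. Other members are named by value, and from each further list the 2 largest called rises and falls. Alternatives were no floor or a higher one, no filter or a stricter one, quantile or median scaling, means of probe sets, every probe set as a feature, no trend, the block and each array left out.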

Additional observations from a re-analysis of the deposited data

How the results depend on the processing

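The counts of members called higher and lower (13 each) stayed within 1.5 times their value under each of the 16 other settings, at 9 to 15 and 11 to 14, and leaving out 1 array at a time gave 13 to 15 and 12 to 14. Relative to neighbouring genes, the added setting, 8 rises were called, 3 of them (Idh3g, Ndufs7 and Nrf1) not called in the main fit. Of the 26 called members 13 kept direction and call under all 17 settings. Of the 22 not called, 13 stayed so under all 17, while Idh3g stayed so under 11 and Ndufv1 under 13. Signs turned, with the cause not tested, for Mdh1 (-0.25 with the mean of probe sets and -0.38 relative to neighbours, both called), Ndufa10 (-0.016 and -0.081), Sdha (-0.027), Atp5a1 (-0.20) and Ndufb9 (-0.23, called), the last 3 relative to neighbours. Same-numbered replicates did not deviate together (correlations 0.0385, -0.0273 and -0.0692), and the main fit had no replicate block. Whether same-numbered cultures were handled as pairs cannot be told from these correlations. With the replicate block 13 members were called higher and 13 lower, and 5877 genes in all against 6004, with no member's call changed. The smallest called member change was 0.17 in size (Cycs, SE 0.0498) and the largest one not called 0.16 (Pcx, SE 0.194). The size that can be called with 3 arrays a group thus depends on each gene's SE. Over all tested genes, changes not called ran from -1.39 to 1.43.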
